A study of Homo sapiens with 2 samples.

Results

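ISM2, GPR146, PPFIA4 and NDRG1 are 4 human genes with little RNA in solvent-treated hepatoma cells and far more after treatment with JIB-04. They are 4 of the 27685 genes in the deposited annotation, and were selected by their high ratio of JIB-04 over DMSO in the 2 libraries described here, so that ratio is given as a description and nothing is tested with it. All 4 were found by their Entrez IDs in both libraries (145501 for ISM2, 115330 for GPR146, 8497 for PPFIA4 and 10397 for NDRG1), and all 4 had at least 1 TPM in either library, as did 14450 genes in all. TPM is a transcript's share of all transcripts in a library, scaled for transcript length. The cells were PLC/PRF/5, an established hepatocellular carcinoma line, treated for 24 h with 6 µM JIB-04, an inhibitor of the Jumonji histone demethylases, or for 24 h with DMSO, its solvent. The title of the control library names DMSO, whereas one of its labels calls the cells untreated. With 1 library per condition there is no replicate, so no test of a difference was possible and differences between cultures cannot be told apart from the effect of the drug. The JIB-04 library held an estimated 23721989 fragments and the DMSO library an estimated 28187793. Of 10 hepatocyte and hepatoma markers 9 had at least 1 TPM in either library, with KRT18, FGB, AFP and TTR among them. APOA1 (0.99 TPM with JIB-04 and 1.34 TPM with DMSO) and APOA2 (0.86 TPM with JIB-04 and 1.08 TPM with DMSO) only just did so. ALB was at 4.53 TPM with JIB-04 and 9.74 TPM with DMSO, whereas GPC3 was listed at 0 TPM with JIB-04 and at 0.11 TPM with DMSO.

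The products of these genes work in different places in the cell. ISM2 encodes isthmin 2, a secreted protein with a thrombospondin type 1 repeat, known mainly from placenta. GPR146 encodes a G-protein-coupled receptor of the cell surface whose ligand is debated, and in mouse liver its loss lowers blood cholesterol through the kinase ERK and the sterol regulator SREBP2. PPFIA4 encodes liprin-α4, a scaffold protein that belongs to a family which binds receptor tyrosine phosphatases and arranges proteins at the cell edge and at synapses. NDRG1 encodes a cytoplasmic protein that is phosphorylated by the kinase SGK1 and whose gene is repressed by MYC proteins. NDRG1 and PPFIA4 are known to be switched on in low oxygen by hypoxia-inducible factor (HIF), a transcription factor whose α subunits are marked for degradation by oxygen-dependent hydroxylases. HIF binds DNA at a short core sequence, ACGTG or GCGTG. The hydroxylases and the Jumonji demethylases both need iron and 2-oxoglutarate.

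RefSeq promoter windows (build GRCh38.p14, 250 bases before to 50 bases after an annotated start) were found for ISM2, PPFIA4 and GPR146, which has one at each of 2 starts. They are shown for the HIF core matches they hold near the starts, and because both starts of GPR146 have deposited transcripts of their own. The GPR146 windows are not spaced as the starts in the deposited hg19 models are. Positions given below are therefore from the GRCh38.p14 starts, which need not be the deposited ones. No window of NDRG1 was used here. Each is written 5′ to 3′ on the strand of the gene, with every match to ACGTG or GCGTG on either strand in capitals. Matches that overlap form 1 run, so that CACGTG holds ACGTG on both strands and is also the E-box of MYC-like factors.
ISM2, chr14:77498767-77499066, minus strand: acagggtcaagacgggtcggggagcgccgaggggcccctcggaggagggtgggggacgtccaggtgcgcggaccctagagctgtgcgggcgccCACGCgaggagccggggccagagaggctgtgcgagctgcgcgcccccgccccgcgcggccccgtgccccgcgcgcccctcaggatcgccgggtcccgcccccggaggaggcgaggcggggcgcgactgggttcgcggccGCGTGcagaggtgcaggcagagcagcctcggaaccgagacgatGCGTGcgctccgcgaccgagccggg
GPR146 upstream start, chr7:1044296-1044595, plus strand: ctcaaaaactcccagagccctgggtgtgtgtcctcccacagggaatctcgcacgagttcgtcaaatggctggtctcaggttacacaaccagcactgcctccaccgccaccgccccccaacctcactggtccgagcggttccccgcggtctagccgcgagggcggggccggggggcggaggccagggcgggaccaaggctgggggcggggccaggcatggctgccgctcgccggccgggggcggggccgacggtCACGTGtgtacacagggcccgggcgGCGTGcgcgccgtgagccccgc
GPR146 downstream start, chr7:1055120-1055419, plus strand: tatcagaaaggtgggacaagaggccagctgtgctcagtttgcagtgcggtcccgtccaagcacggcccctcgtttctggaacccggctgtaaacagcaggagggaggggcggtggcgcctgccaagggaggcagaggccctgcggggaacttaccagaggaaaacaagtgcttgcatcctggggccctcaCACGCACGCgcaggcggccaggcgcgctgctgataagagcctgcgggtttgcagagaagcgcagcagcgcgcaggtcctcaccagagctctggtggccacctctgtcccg
PPFIA4, chr1:203026241-203026540, plus strand: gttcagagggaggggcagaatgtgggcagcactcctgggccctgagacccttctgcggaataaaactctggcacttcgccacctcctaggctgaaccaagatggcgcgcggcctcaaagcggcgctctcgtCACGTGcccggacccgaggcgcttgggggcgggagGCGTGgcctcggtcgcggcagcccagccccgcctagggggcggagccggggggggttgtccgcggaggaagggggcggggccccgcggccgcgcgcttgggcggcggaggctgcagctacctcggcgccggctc

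The PPFIA4 window held CACGTG with its forward match starting at position -118 from the start, and a GCGTG at -84. The upstream GPR146 window held CACGTG just past the start, with the forward match from position 5, and a GCGTG at 29, while its downstream window held 2 overlapping GCGTG matches on the reverse strand, at -60 and -56. The ISM2 window had no ACGTG and 3 GCGTG matches, at -157 on the reverse strand and at -18 and 26 on the forward strand. All 4 windows therefore held a match, which is common, since 60.6% of 15910 windows of genes with at least 1 TPM in either library held one or the other and 9.39% held CACGTG. Among all 35116 windows of 300 bases the shares were 48.4% and 7.26%. The windows of genes at least 2-fold higher with JIB-04 held a core match in 60.5%, against 81.5% of the 54 windows of 35 hypoxia-induced genes (a list described below). The windows of the hypoxia-induced genes also held more G and C, with a median of 69% against 66%. Whether base composition has a part in the difference between these shares was not tested. The windows of ISM2 (78.3%), PPFIA4 (73.3%) and the upstream start of GPR146 (72.7%) were rich in G and C. The median was 64.7% in windows of genes with at least 1 TPM, and the downstream window of GPR146, at 64.7%, was at that median. A match of 5 letters says nothing by itself on whether a factor was bound.

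ISM2 (chromosome 14 of hg19, 77940738 to 77965210, minus strand) was at 104 TPM with JIB-04 and at 1.17 TPM with DMSO. These levels rest on an estimated 3036 fragments with JIB-04 and 41 with DMSO. In RNA from a whole culture, more cells with the transcript and more of it per cell cannot be told apart. The ratio of the TPM values was 89.5, with a 95% interval of 65.8 to 125 that covers counting error only. On the scale of TPM + 1, used throughout for ranks and counts, the log2 ratio was 5.60 (interval 5.35 to 5.85). ISM2 stood above 87.6% of the 14450 genes in level with JIB-04, and above 5.22% of them with DMSO.
GPR146 (chromosome 7 of hg19, 1084209 to 1098905, plus strand) was at 19.6 TPM with JIB-04 and at 0.16 TPM with DMSO. The DMSO value rests on 4 estimated fragments and the JIB-04 value on 368. The ratio of 124 therefore has a wide interval, 48.1 to 458. The log2 ratio of TPM + 1 was 4.15 (interval 3.85 to 4.31), well below log2 of that ratio because the added 1 is several times the DMSO level. Only 0.81% of genes were lower with DMSO, while 50.5% were lower with JIB-04, so with JIB-04 the gene stood near the middle of the genes described.
PPFIA4 (chromosome 1 of hg19, 202995649 to 203047864, plus strand) was at 38.6 TPM with JIB-04 and at 1.31 TPM with DMSO, from 2451 estimated fragments with JIB-04 and 101 with DMSO. The ratio was 29.6 (interval 24.2 to 36.4) and the log2 ratio 4.10 (interval 3.93 to 4.27). It stood above 68.4% of genes with JIB-04 and above 6.51% with DMSO.
NDRG1 (chromosome 8 of hg19, 134249414 to 134309547, minus strand) was at 92.8 TPM with JIB-04 and at 3.64 TPM with DMSO, from 2812 estimated fragments with JIB-04 and 136 with DMSO. The ratio was 25.5 (interval 21.5 to 30.5) and the log2 ratio 4.34 (interval 4.14 to 4.54). It was the most abundant of the 4 with DMSO, where it stood above 17.4% of genes, and the second most abundant after ISM2 with JIB-04, where it stood above 86.1%.

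**Figure D1:**
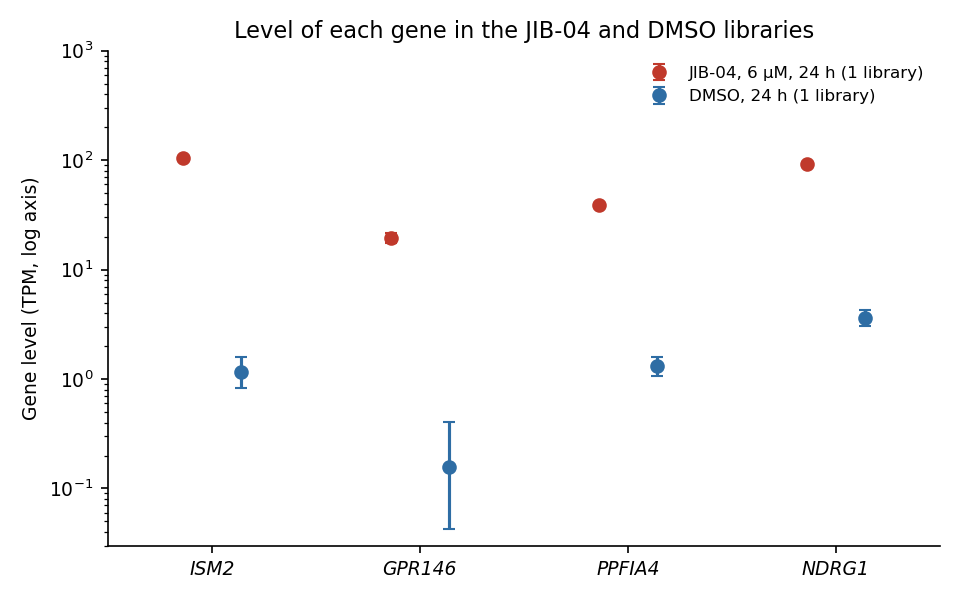
Level of each gene in TPM (log axis) in the JIB-04 library (red, left of each pair) and the DMSO library (blue); bars are 95% Poisson intervals for counting error alone, taken from the estimated fragments. The JIB-04 points lie between 19.6 and 104 TPM and the DMSO points between 0.16 and 3.64 TPM, with the widest bar on the 4 fragments of GPR146.

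With JIB-04 the order of the levels was ISM2, NDRG1, PPFIA4 and GPR146, and the counting intervals of neighbours in that order did not overlap. With DMSO the order was NDRG1, PPFIA4, ISM2 and GPR146. There the interval of PPFIA4 (1.06 to 1.59 TPM) overlapped that of ISM2 (0.84 to 1.58 TPM), so the order of these genes is uncertain. An overlap of separate intervals does not show that the levels were equal. The intervals of the TPM ratios of ISM2 and GPR146 overlapped, as did those of PPFIA4 and NDRG1, whereas those of ISM2 and GPR146 lay above both of the others.

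By the log2 ratio of TPM + 1, ISM2 was 2nd, NDRG1 was 6th, GPR146 was 7th and PPFIA4 was 8th among the 14450 genes. These ranks depend on the 1 TPM that is added, since NDRG1 was 44th, PPFIA4 was 37th, GPR146 was 9th and ISM2 was 8th with 0.1 in its place, and GPR146 was 46th with 5. All 4 were at least 2-fold higher with JIB-04, beside a background of 5.99% of all genes described, a count that the choice of these genes fixes. In the other direction, 6.88% of genes were past 2-fold, and the median log2 ratio over all genes was -0.15. Of the genes past 2-fold, 46.5% were higher with the deposited TPM, against 62.0% after the median ratio of genes with at least 10 TPM in both libraries was set to 1 and 57.0% after quantile normalization. Under the median scaling the log2 ratios were 5.76 for ISM2, 4.49 for NDRG1, 4.30 for GPR146 and 4.25 for PPFIA4. Under quantile normalization they were 5.64, 4.42, 4.22 and 4.17 in the same order of genes, so neither scaling moved a gene by more than its counting interval.
The metallothionein gene MT1G ranked just above ISM2, with 115 TPM with JIB-04 and 0.62 TPM with DMSO. The readthrough gene SERF2-C15ORF63, just below ISM2, and the small GTPase gene RAB20, just above NDRG1, were listed at 0 with DMSO. MT3, the metallothionein gene just below PPFIA4, had a log2 ratio of 4.05 (20.3 TPM with JIB-04 and 0.29 TPM with DMSO).

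**Figure D2:**
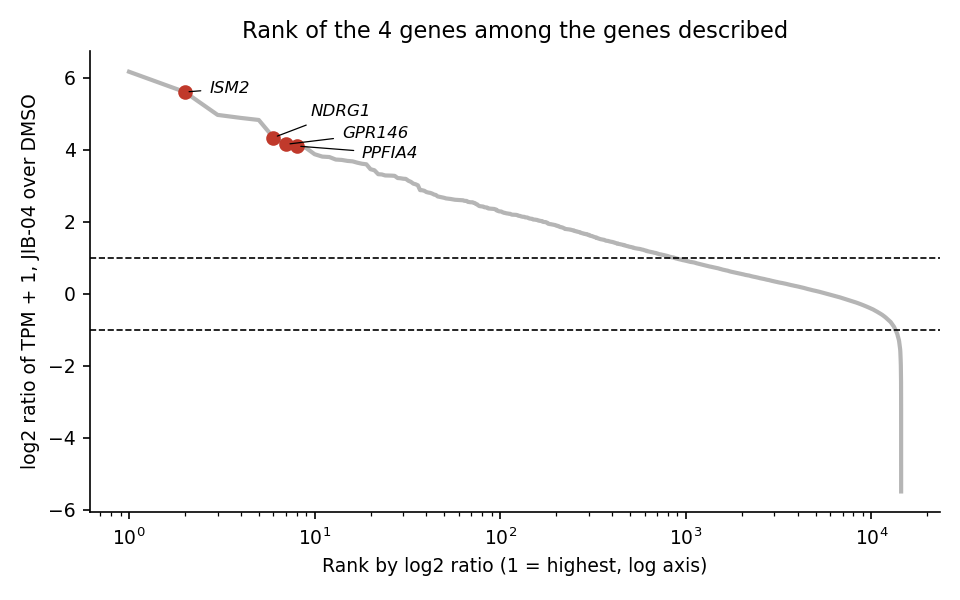
The log2 ratio of TPM + 1 of JIB-04 over DMSO (y axis) of the 14450 genes described, in order of rank (x axis, log scale, 1 is the highest); dashed lines mark 2-fold. The red points are ISM2 at 5.60, NDRG1 at 4.34, GPR146 at 4.15 and PPFIA4 at 4.10, all within the first 8 ranks with 1 TPM added.

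The genes nearest to each of them in both levels were found by the distance in log2(TPM + 1) over the 2 libraries, a measure that uses only 2 points per gene. MT1G was nearest to ISM2, at a distance of 0.44, followed by NDRG1 (1.11) and the hexokinase gene HK2 (1.31), so ISM2 had few genes close to it. HK2 was also nearest to NDRG1, at 0.51, with 64.8 TPM with JIB-04 and 3.69 TPM with DMSO. PIK3IP1, a negative regulator of PI3K (0.62), and the antisense RNA gene UPK1A-AS1 (0.71) followed. MT3 (0.16), the lysyl oxidase gene LOX (0.25) and C11orf96 (0.30) were nearest to GPR146, and all of them were below 0.32 TPM with DMSO. The nearest to PPFIA4 were DOK3 (0.70), the cytokine receptor gene IL2RG (0.78) and DEGS2 (0.84), whose levels with JIB-04 lay between 21.2 and 24.4 TPM, below that of PPFIA4.

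The deposited tables divide each gene over its annotated transcripts, 11 for the 4 genes, of which 8 had at least 1 TPM in either library. Of these 8, 7 were at least 2-fold higher, beside a background of 10.5% of 30127 transcripts, and 1 was lower by 2-fold or more. The choice of the genes by their ratio largely fixes this count. A transcript listed at 0 with DMSO that has at least 1 TPM with JIB-04 is also past 2-fold by the rule itself. The transcripts of a gene share most of their exons, and StringTie splits shared reads by estimation, so a transcript value is less firm than the gene value.
The longer ISM2 transcript, NM_199296, with 7 exons and 2990 bases, held 95.9 TPM with JIB-04, or 92.0% of the gene, and 1.17 TPM with DMSO, or 100%. The other, NM_182509, lacks 1 exon of 346 bases, and was at 8.36 TPM with JIB-04 and listed at 0 with DMSO. The exon that tells them apart had a coverage of 277 reads per base with JIB-04 and 4.62 with DMSO, above every other exon of the gene in both libraries.
For PPFIA4, 99.7% of the JIB-04 value, 38.5 TPM, was assigned to NM_001304332, which was listed at 0 with DMSO, while the whole DMSO value, 1.31 TPM, was assigned to NM_001304331. This makes NM_001304331 the 1 transcript that was lower, at 0.13 TPM with JIB-04 (log2 ratio -1.03). NM_001304331 has 30 exons and NM_001304332 has 29, and they differ by a single exon of 27 bases. That exon had a coverage of 7.83 with JIB-04, beside 62.9 and 83.9 in the exons on either side, and of 0 with DMSO, where the exons on either side had 1.56 and 0.23. No aligned base with DMSO therefore lay on the only exon that marks the transcript to which the whole DMSO value was given, and the opposite directions of the transcripts rest on that assignment. The dominant transcript differed between the libraries in 17.3% of 8509 genes with several transcripts, and in 28.9% of the 1212 of them with under 150 estimated fragments with DMSO.
GPR146 showed the same limit. With JIB-04, 61.5% of its TPM went to NM_001303473, from the upstream start, and 37.5% to NM_138445, from the start 10702 bases further down in the hg19 models, with 12.0 and 7.34 TPM. With DMSO all of it went to NM_001303474, at 0.16 TPM, a transcript that was at 0.19 TPM with JIB-04. However, the last exon of 1778 bases, which all 3 transcripts share, carried 96.8% of the estimated fragments with JIB-04 and 100% with DMSO. The first exon of the upstream start carried 1.97 estimated fragments with JIB-04 and that of the downstream start 5.61, and both were at 0 with DMSO. The reads thus show more GPR146 RNA with JIB-04, while the split between both starts rests on few fragments. The promoter windows printed above follow the GRCh38.p14 starts, which need not be these hg19 starts.
NDRG1 had the same main transcript in both libraries, since NM_006096 held 97.1% of the gene with JIB-04 (90.1 TPM) and 86.4% with DMSO (3.14 TPM). NM_001258432 was at 1.82 TPM with JIB-04 and listed at 0 with DMSO. NM_001135242, with a longer first exon, was at 0.92 TPM with JIB-04 and at 0.49 TPM with DMSO, and NM_001258433 was listed at 0 in both.

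**Figure D3:**
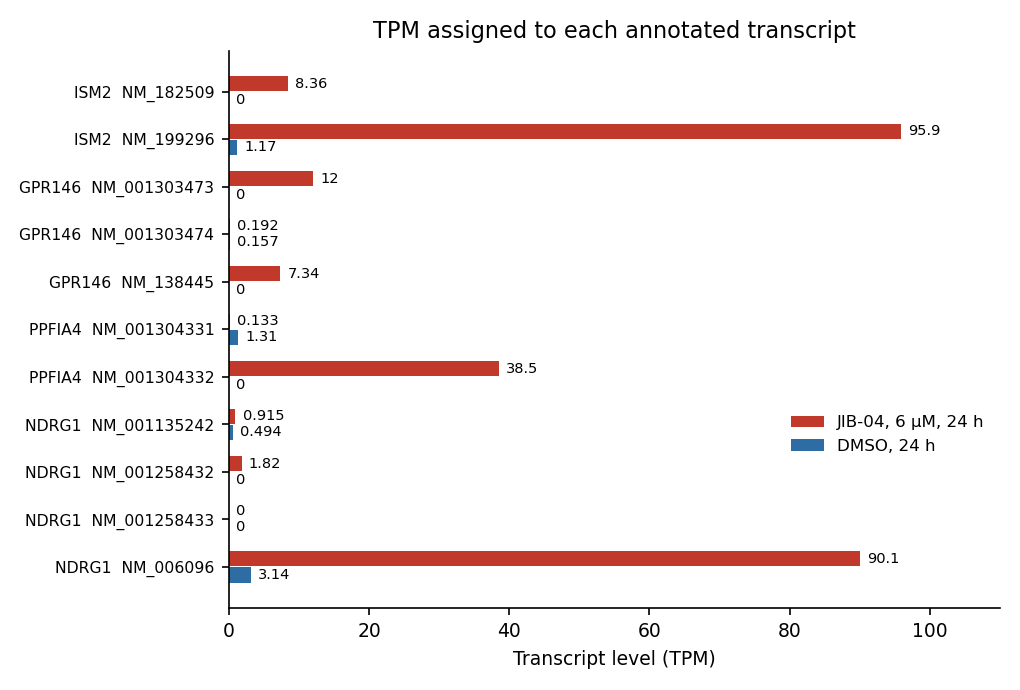
TPM assigned to each annotated RefSeq transcript of the 4 genes (x axis), with the JIB-04 library in red above the DMSO library in blue; the number at each bar is its value. NM_199296 of ISM2 (95.9 TPM with JIB-04, 1.17 TPM with DMSO) and NM_006096 of NDRG1 (90.1 TPM with JIB-04, 3.14 TPM with DMSO) lead in both libraries, whereas for PPFIA4 and GPR146 the leading transcript differs between JIB-04 and DMSO.

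In ISM2, PPFIA4 and NDRG1 the higher values with JIB-04 ran along the exons of the gene, while those of GPR146 came almost wholly from its last exon. The last exon carried 54.6% of the estimated fragments with JIB-04 in ISM2, 53.7% in PPFIA4, 65.0% in NDRG1 and 96.8% in GPR146. In GPR146 that exon is long, with 1778 of the 1864 bases of NM_001303473. Exon coverage, summed over the transcripts that share an exon and put on the TPM scale, was higher with JIB-04 in 7 of 7 exons of ISM2, 4 of 4 of GPR146, 30 of 30 of PPFIA4 and 17 of 17 of NDRG1. These counts largely follow from the choice of the genes by their ratio, and no share over the exons of all genes is given beside them. Exons of a gene share fragments and are not replicates.
In ISM2 the coverage per base ranged over 76.9 to 277 with JIB-04 and 0 to 4.62 with DMSO, with medians of 204 with JIB-04 and 2.64 with DMSO. The lowest exon in both libraries was the first, at 76.9 with JIB-04 and 0 with DMSO. The log2 ratios of its exons lay between 5.31 and 6.54, with a median of 5.59, close to the gene value of 5.60.
In NDRG1 the coverage of the exons had a median of 189 with JIB-04 and 9.05 with DMSO, and 16 of 17 exons were at least 2-fold higher. The exception was the longer version of the first exon, at 0.36 with JIB-04 and 0.06 with DMSO. The median log2 ratio was 4.17.
In PPFIA4 the medians were 50.6 with JIB-04 and 2.44 with DMSO, and 4 exons had no coverage with DMSO. The first exon stood out with a coverage of 8.41 with JIB-04 and 3.02 with DMSO, a ratio of 3.38 on the TPM scale from 4.54 estimated fragments with JIB-04 and 1.63 with DMSO. The last exon, with 1317 fragments with JIB-04 and 46.4 with DMSO, had a ratio of 34.4. In the JIB-04 library the first exon reached 0.17 of the median exon of PPFIA4, 0.28 in NDRG1, 0.38 in ISM2 and 0.84 in GPR146. The share in GPR146 is high because its median exon had a coverage of only 5.51, beside 40.5 in its last exon. The median share was 0.38 over 3364 genes with 1 transcript, at least 4 exons and a median exon coverage of at least 5. Unlike those genes, each of the 4 has several transcripts.
In GPR146 the 3 short exons had coverages of 4.63, 5.43 and 5.60 with JIB-04 and 0 with DMSO, and the last exon 40.5 with JIB-04 and 0.45 with DMSO, a ratio of 108 on the TPM scale.

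**Figure D4:**
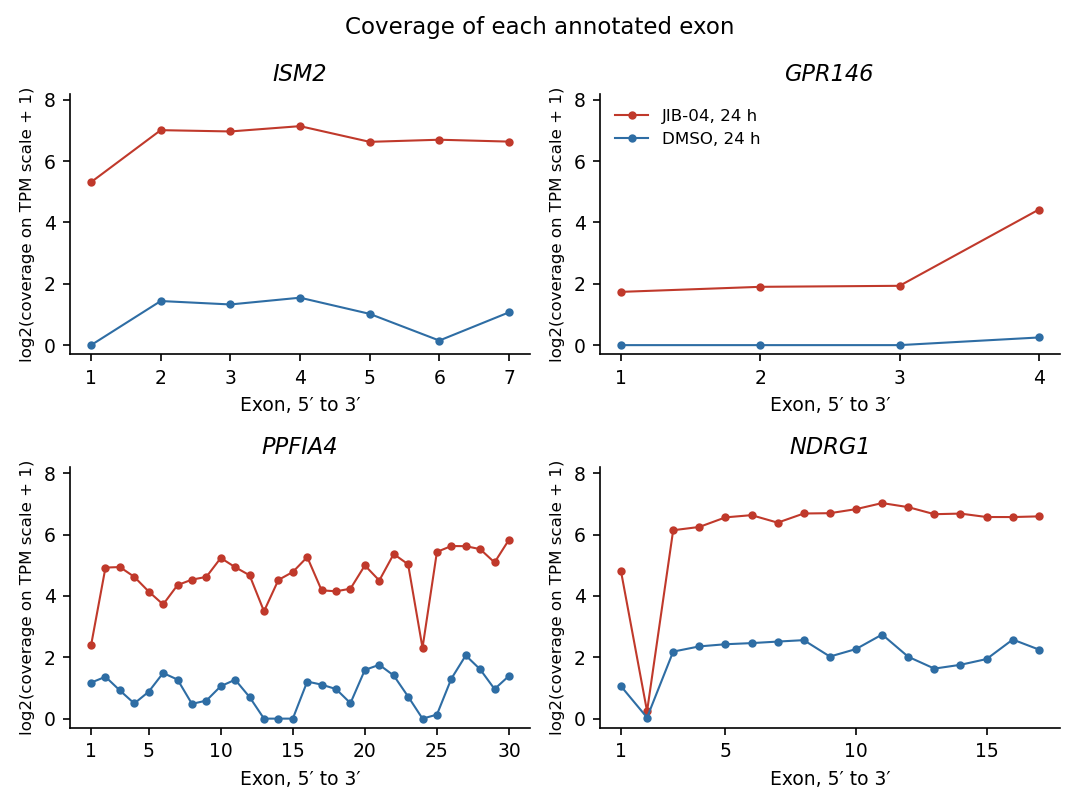
Coverage of each annotated exon on the TPM scale, as log2 of coverage + 1 (y axis), from the 5′ to the 3′ end of each gene (x axis), with JIB-04 in red and DMSO in blue; in NDRG1 the second point is a longer version of the first exon. The red line lies above the blue line at every exon, and in GPR146 the last exon, at 20.4 on the TPM scale with JIB-04, stands above the 3 exons before it.

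The relatives of NDRG1, PPFIA4 and ISM2 in their families were within 2-fold in both directions, as were most genes described. Of the NDRG family, NDRG2 was at 15.9 TPM with JIB-04 and 25.0 TPM with DMSO (log2 ratio -0.62), NDRG3 at 37.8 TPM with JIB-04 and 51.2 TPM with DMSO (-0.43) and NDRG4 at 70.5 TPM with JIB-04 and 83.8 TPM with DMSO (-0.25). With DMSO, NDRG1 was the least abundant of the 4 family members, and with JIB-04 it was the most abundant.
Of the liprins, PPFIA1 was at 95.6 TPM with JIB-04 and 60.3 TPM with DMSO (0.66) and PPFIA3 at 34.7 TPM with JIB-04 and 24.7 TPM with DMSO (0.47), while the liprin-β genes PPFIBP1 and PPFIBP2 had log2 ratios of -0.27 and -0.56. PPFIA2 was at 0.02 TPM with JIB-04 and listed at 0 with DMSO.
ISM1, the only other isthmin gene, was listed at 0 with JIB-04 and at 0.10 TPM with DMSO. Of 22 genes for other secreted proteins with thrombospondin type 1 repeats, 7 had at least 1 TPM in either library, none of them past 2-fold, with a median log2 ratio of 0.02. Of those averaging at least 5 TPM, ADAMTSL5 (0.39) and CCN1 (0.18) were highest, while the matricellular genes CCN2 (-0.88) and THBS1 (-0.67) were lowest.
Of 71 receptor genes named GPR and a number, a group added after the values were seen, 21 had at least 1 TPM in either library, with a median of -0.05. For all genes described the median was -0.15, with 5.99% past 2-fold upward and 6.88% downward. Besides GPR146, GPR160 (25.7 TPM with JIB-04 and 5.41 TPM with DMSO, log2 ratio 2.06) and GPR155 (1.36) were at least 2-fold higher, and GPR15 (-1.02) was at least 2-fold lower.

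Proteins that act with these genes showed values in both directions. Beside the counts past 2-fold given here, the shares over all genes described were 5.99% upward and 6.88% downward. Whether these lists differ from those shares was not tested. Of 24 partners of α-liprins, 17 had at least 1 TPM. Their median log2 ratio was -0.0079, and 2 lay past 2-fold on the higher side and 1 on the lower side. The higher ones were ARHGEF7, a guanine exchange factor that binds GIT proteins (104 TPM with JIB-04 and 51.1 TPM with DMSO, 1.01), and the kinesin gene KIF1A, at 2.28 TPM with JIB-04 and 0.16 TPM with DMSO (1.50). LIN7A, a gene for a scaffold protein, was at 9.95 TPM with JIB-04 and 21.2 TPM with DMSO (-1.02). PTPRF, which encodes the receptor phosphatase LAR, was at 295 TPM with JIB-04 and 181 TPM with DMSO (0.70), and PHLDB1 had a log2 ratio of -0.96.
Among kinases that phosphorylate NDRG1 and MYC-related genes, 10 of 11 had at least 1 TPM. SGK1 was at 3.08 TPM with JIB-04 and 1.68 TPM with DMSO (0.61), SGK2 at 9.65 TPM with JIB-04 and 29.1 TPM with DMSO (-1.50), SGK3 at 10.8 TPM with JIB-04 and 16.0 TPM with DMSO (-0.53), and MYC, a repressor of NDRG1, at 50.6 TPM with JIB-04 and 39.5 TPM with DMSO (0.35). MXI1, which encodes a MAX partner that opposes MYC and is also counted among the hypoxia-induced genes below, was the 1 gene at least 2-fold higher, at 69.2 TPM with JIB-04 and 10.6 TPM with DMSO (2.60). MAX had a log2 ratio of 0.36 and AKT2 of -0.65.
Of 14 genes of sterol control that in mouse liver lie downstream of GPR146, 13 had at least 1 TPM, with a median of 0.16. SREBF2 itself was at 144 TPM with JIB-04 and 116 TPM with DMSO (0.31). INSIG1 and INSIG2, which hold SREBP proteins back, were at least 2-fold higher (1.78 and 2.63), INSIG2 being also among the hypoxia-induced genes below. APOB, the apolipoprotein gene, was at least 2-fold lower (-1.62), and MAPK3, which encodes the kinase ERK1, had a log2 ratio of -0.12.

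The 4 genes were set beside 40 genes known to be induced by hypoxia, a list written from general knowledge with earlier results of these data known. The 4 were chosen by this same ratio, so their high place is a description. Of the 40, 38 were at least 2-fold higher with JIB-04 and the other 2 were below 2-fold, and their median was 2.47. Among all genes described, 5.99% were that much higher, and the median was -0.15. With 1 TPM added, ISM2 lay above every gene of this list, and RAB20, listed at 0 with DMSO, was the only one above NDRG1, GPR146 and PPFIA4. These places depend on the 1 TPM that is added, since RAB20 and LOX (17.1 TPM with JIB-04 and 0.30 TPM with DMSO) have DMSO levels well below it. The highest after RAB20 was the enolase gene ENO2 (3.88), and the lowest were DDIT4 (0.83) and BHLHE40 (0.85). None of the 4 is on the list, and their place beside it rests on 1 library per condition.
Of 10 genes of oxygen sensing, 8 had at least 1 TPM. HIF1A, for the HIF-1α subunit, was at 116 TPM with JIB-04 and 132 TPM with DMSO (-0.18), EPAS1, for HIF-2α, at 177 TPM with JIB-04 and 126 TPM with DMSO (0.49), and the hydroxylase gene EGLN3 at 50.7 TPM with JIB-04 and 3.80 TPM with DMSO (3.43). EGLN1, for another such hydroxylase, was at 119 TPM with JIB-04 and 49.0 TPM with DMSO (1.26), and VHL, whose product marks the α subunits for degradation, had a log2 ratio of 0.15. EGLN1 and EGLN3 are also among the 40 genes.

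Genes beside the 4 on their chromosomes were mostly within 2-fold, like most genes described. Among all 14450, 5.99% lay past 2-fold on the higher side and 6.88% on the lower side. Over the 5 nearest genes with at least 1 TPM on each side, and 1 overlapping gene, 41 in all, the median was -0.05, and 3 lay past 2-fold, all of them beside GPR146. Around ISM2 the 10 neighbours lay between -0.87 and 0.05, and the nearest, AHSA1 at 4.92 kb and SPTLC2 at 7.13 kb, had log2 ratios of -0.60 and -0.08. TMEM183A and TMEM183BP, whose values are uncertain if they share reads as near copies, which was not tested, lay 1.67 and 2.98 kb from PPFIA4, with -0.14 and -0.56, and the 10 neighbours of that gene ranged over -0.91 to 0.53. The neighbours of NDRG1 were far apart, with ST3GAL1 at 158 kb (0.82) and PHF20L1 at 388 kb (-0.10) the nearest, and lay between -0.97 and 0.82.
Around GPR146 the median of the 11 neighbours was 0.75. The gene lies inside the span of CHLSN, a gene of the opposite strand that was at 93.6 TPM with JIB-04 and 125 TPM with DMSO (-0.41). COX19 (0.79), ADAP1 (1.74), GPER1 (0.88), SUN1 (0.78), MICALL2 (1.07) and INTS1 (0.75) were higher with JIB-04, GET4 had 0.32, ZFAND2A 0.27 and DNAAF5 -0.31, and ZFAND2A-DT was at least 2-fold lower (-1.02). GPER1, another receptor gene, lies 27.5 kb further along on the same strand and was at 2.52 TPM with JIB-04 and 0.92 TPM with DMSO. None of the exonic bases of the 4 genes was shared with another annotated gene on either strand.

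Markers of other tissues and cell types were mostly at or near 0. Of 9 placenta markers, 8 could be matched and 3 had at least 1 TPM, none of them past 2-fold, with CGA at 34.3 TPM with JIB-04 and 46.2 TPM with DMSO, CGB3 at 2.38 TPM with JIB-04 and 0.77 TPM with DMSO, and KISS1 at 1.93 TPM with JIB-04 and 2.14 TPM with DMSO. The summed level of the placenta markers was 38.7 TPM with JIB-04 and 49.2 TPM with DMSO, and CSH1, PSG3 and PAGE4 were listed at 0 in both. Of 7 neuron markers, 2 had at least 1 TPM, SNAP25 (0.10) and SYT1 (-1.68), summing over the list to 70.5 TPM with JIB-04 and 72.7 TPM with DMSO, and RBFOX3, ELAVL4 and STMN2 were listed at 0 in both. Of 6 skeletal muscle markers only MYOD1 had at least 1 TPM, at 3.88 TPM with JIB-04 and listed at 0 with DMSO, and the list summed to 3.99 TPM with JIB-04 and 0.24 TPM with DMSO. None of 4 endothelial markers reached 1 TPM (sums of 0.34 TPM with JIB-04 and 0.54 TPM with DMSO). Of 5 fibroblast markers 3 did, none past 2-fold, with sums of 14.1 TPM with JIB-04 and 21.9 TPM with DMSO. Of 5 leukocyte markers only CD68 and LYZ did, with sums of 180 TPM with JIB-04 and 155 TPM with DMSO, and PTPRC, which marks all leukocytes, was listed at 0 in both libraries. The 10 hepatocyte and hepatoma markers summed to 5461 TPM with JIB-04 and 8899 TPM with DMSO, mostly from the keratin genes KRT8 and KRT18. Whether these differences have a part in the levels of the 4 genes was not tested.

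**Figure D5:**
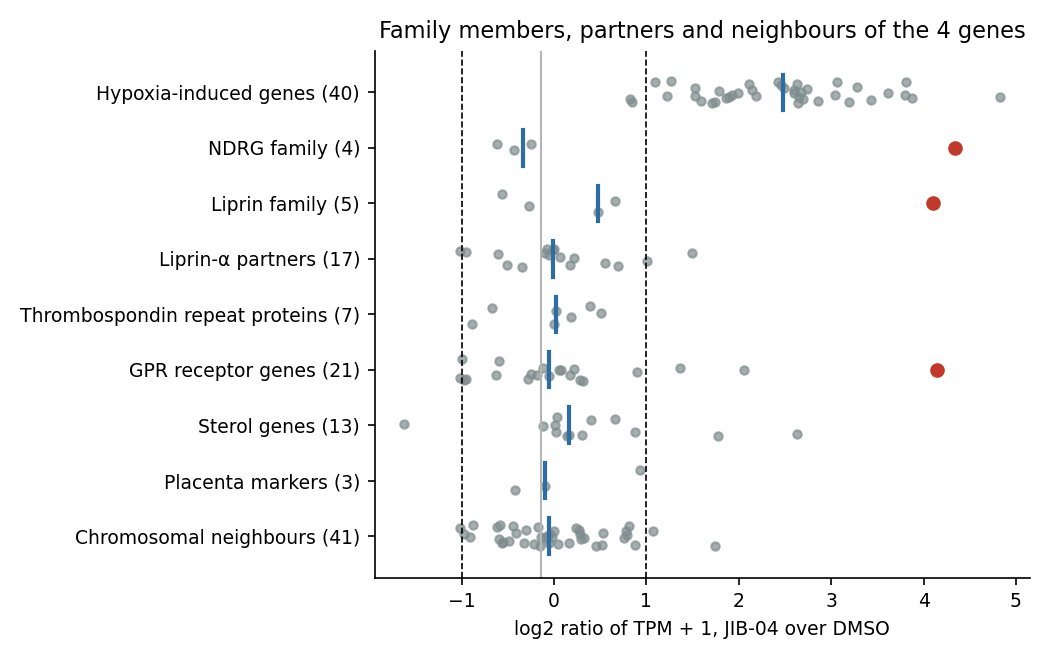
Log2 ratio of TPM + 1 of JIB-04 over DMSO (x axis) of single genes (points) in each group (y axis, number of genes in parentheses), with GPR146, PPFIA4 and NDRG1 in red in the groups that hold them; blue bars are medians, the gray line the median of all genes at -0.15 and dashed lines 2-fold. Where a group has a red point, its median counts that gene too. The hypoxia-induced genes have a median of 2.47, while the gray points of the NDRG and liprin families lie between -0.62 and 0.66.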

How the data were processed

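RNA of PLC/PRF/5 cells was sequenced from stranded mRNA libraries, 1 per condition. Per the labels, reads were processed with StringTie 1.3.3b, HISAT2 2.0.5, Trimmomatic 0.32, Bowtie2 2.2.6 and FastQC 0.11.5, on hg19. For each RefSeq transcript the authors deposited coverage, FPKM and TPM, and coverage for each exon, with no read counts. The TPM of a gene was summed over its transcripts. Symbols came from a RefSeq table of GRCh38.p14, used for names only, for 27559 of 27685 IDs.

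Ratios divide JIB-04 by DMSO after adding 1 to each TPM, on the log2 scale, for genes with at least 1 TPM in either library, and 2-fold was the threshold. Fragments were estimated as aligned bases over 202, the commonest number on weakly covered genes in both libraries, although only 28.1% and 29.1% of those genes in the JIB-04 and DMSO libraries lay within 2 bases of a multiple. Intervals of 95% are exact Poisson or conditional binomial ones and cover counting error only. The ratios and intervals were run on simulated libraries with known ratios and counting error alone. Those libraries test neither the variation between cultures nor the estimate of fragments. The genes, the 16 lists and the rules were chosen with earlier results of these data known. Named genes are the 4 genes with all transcripts, those next in rank, the 3 nearest in both levels, relatives, 5 neighbours on each side, and the 2 highest and 2 lowest of each other list with a mean of at least 5 TPM, or all genes past 2-fold where these are 5 or fewer. ALB, FGB, SREBF2, SGK1, SGK3, MYC and EPAS1 were added for their roles after their values were seen. Genes whose transcripts lie over a megabase apart were not used as neighbours. Alternatives were other pseudocounts, filters, thresholds, FPKM, 2 scalings, the main transcript alone and the median exon. Python 3.11.15, numpy 2.4.6, pandas 2.3.3, SciPy 1.17.1 and matplotlib 3.10.9 were used.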

Additional observations from a re-analysis of the deposited data

How the results depend on the processing

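The 4 genes were higher with JIB-04 under all 7 alternatives, a direction that their choice by this ratio largely fixes. Of the 28 values, 13 stayed inside the counting interval of the value in the report. The pseudocount moved all 4. With 0.1 the log2 ratios were 6.37 (ISM2), 6.25 (GPR146), 4.78 (PPFIA4) and 4.64 (NDRG1), and with 5 they were 4.15, 2.25, 2.79 and 3.50. On FPKM + 1, whose values are lower than TPM, they were 4.87, 3.07, 3.43 and 3.95. For GPR146 the main transcript alone gave 3.70 and the median exon 1.92, where 3 of its 4 exons had a coverage of 5.60 or less in both libraries. For PPFIA4 the main transcript alone, listed at 0 with DMSO, gave 5.30. Over the pseudocounts, FPKM, quantile normalization and a filter of 5 TPM, the rank ranged from 2 to 8 for ISM2, 7 to 46 for GPR146, 8 to 37 for PPFIA4 and 3 to 44 for NDRG1. The number of genes at least 2-fold higher was 865, against 439 with a pseudocount of 5 and 318 at 3-fold. No paired analysis was possible because each condition has 1 library. The DMSO levels of GPR146 and of single exons of PPFIA4 are limited by depth.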
